A study of Mus musculus with 11 samples.

Results

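The nuclear genome encodes most of the protein subunits of the mitochondrial respiratory chain and the ATP synthase, and 86 of the 21957 genes of the count table were taken as these subunits by their gene symbols. They were 38 genes of complex I (symbols starting with Ndufa, Ndufab, Ndufb, Ndufc, Ndufs or Ndufv), 4 of complex II (Sdha to Sdhd), 9 of complex III (Cyc1 and symbols starting with Uqcr), 18 of complex IV (Cox4i to Cox8) and 17 of complex V (Atp5). The choice rested on names and used no measured value, but it was made with earlier results of these data known. Symbols of assembly factors starting with Ndufaf, the gene Atp5s and 1 gene with a name ending in -ps were left out. An identifier under the symbol Atp5o (ENSMUSG00000116933) had 0 counts in every library, and Atp5o below means the other one (ENSMUSG00000022956).

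The cells were primed OT1 cells, described by the submitters as memory cells and known as mouse CD8 T cells whose transgenic T cell receptor recognises a peptide of ovalbumin. One group was left resting (unstimulated, labelled T0) and the other was activated for 2 h with beads carrying antibodies against CD3 and CD28, the receptor's signalling chains and its main costimulator. All groups received cycloheximide, which stalls elongating ribosomes, for 10 min before harvest. Total RNA was sequenced in 3 unstimulated and 3 stimulated libraries, and ribosome-protected fragments (footprints) in 3 unstimulated and 2 stimulated libraries, all counted over coding sequences. The labels give no animal, culture or donor for a replicate, so p-values measure the spread between these libraries, which may be technical.

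RNA libraries held 21658263 to 39346699 counts and footprint libraries 11136 to 23641, so that a count of 0 in a footprint library allows a level of up to 127 to 269 CPM (the level of 3 counts; CPM is the count scaled to a library total of 1000000). Lars2 and the predicted genes Gm20594, Gm10801 and Gm10800 held between 4.09% and 14.9% of all counts in unstimulated RNA libraries and between 12.8% and 25.0% in stimulated ones, and are called the 4 high-count genes below. The 9 CD8 T cell genes checked, among them Cd3e, Cd8a and Lck, were each at 10 CPM or more, and together they measured 3140 to 3675 CPM in unstimulated and 2444 to 3110 CPM in stimulated libraries. The 5 B cell genes summed to 4.96 to 11.7 CPM, the 10 myeloid and dendritic genes to 16.1 to 29.6, and the 6 erythroid and platelet genes to 1.99 to 6.49. The sums of these B cell, myeloid and dendritic, and erythroid and platelet genes overlapped between states. Those of the CD8 T cell, NK cell, CD4 T cell, and stromal and epithelial lists did not overlap. The 4 NK cell genes summed to 39.3 to 41.0 CPM unstimulated and 47.7 to 56.2 CPM stimulated, with only Eomes at 10 CPM or more. The 4 CD4 T cell genes summed to 23.3 to 23.9 and 32.4 to 35.4, with only Cd40lg and Zbtb7b at 10 CPM or more. The 6 stromal and epithelial genes, mostly Pecam1, summed to 111 to 112 and 63.2 to 65.5. Such sums rest on few genes and do not measure a share of other cells. The part of other cells in the RNA differences between states below was not tested.

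Complexes I to IV pass electrons from NADH and succinate to oxygen and complexes I, III and IV pump protons, and the ATP synthase uses the resulting gradient to make ATP. Complexes I, III, IV and V are mosaics of nuclear and mitochondrial gene products, whereas complex II is wholly nuclear-encoded. Memory CD8 T cells are known for a large respiratory reserve, and activation of T cells is known to raise both glycolysis and respiration. The 13 mitochondrially encoded subunit genes had 0 counts in all 11 libraries and could not be compared.

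Promoters of these genes are known for sites of nuclear respiratory factor 1 (NRF1), of the ETS factor GABP and of YY1. The windows of RefSeq (GRCm38.p6) from 250 bases before to 50 bases after a start site were searched on both strands, and 68 of the members had a window. The NRF1 core (GCGCA, any base, GCGC) was present in 17 of 68 members (25%) against 5.19% of 27025 genes with a window. The ETS core CCGGAAG was in 16 members (23.5% against 9.93%) and the YY1 core (AA, any base, ATGGCG, any base, C) in 8 (11.8% against 1.77%). At least 1 of these 3 was found in 36 members (52.9%) against 15.2% of genes, and 5 members held more than 1. An E-box CACGTG was found in 6 members (8.82% against 8.09%) and a cyclic AMP element TGACGTCA in 4 (5.88% against 2.03%). These are matches of letters and say nothing of binding. The genes compared with were all genes with a window, not matched for base composition or RNA level. Whether the higher shares are particular to the subunit genes was not tested.

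Windows of 3 members are shown because their genes carry the results below: Sdha, with the largest RNA decrease, lies on chromosome 13 (74322255 to 74350240), Atp5h, with much RNA and no footprint, on chromosome 11 (115415691 to 115419919), and Cox6a1 had many footprints for its RNA. Each is the 250 bases before the start on the minus strand (chr13:74350241-74350490, chr11:115419920-115420169 and chr5:115348959-115349208), with NRF1 and ETS matches in capitals (CTTCCGG is the ETS core on the other strand).
Sdha: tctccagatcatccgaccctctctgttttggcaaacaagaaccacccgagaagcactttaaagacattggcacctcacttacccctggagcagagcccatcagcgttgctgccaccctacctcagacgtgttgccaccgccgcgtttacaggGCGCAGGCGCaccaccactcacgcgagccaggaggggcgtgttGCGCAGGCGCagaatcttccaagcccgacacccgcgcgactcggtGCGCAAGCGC
Atp5h: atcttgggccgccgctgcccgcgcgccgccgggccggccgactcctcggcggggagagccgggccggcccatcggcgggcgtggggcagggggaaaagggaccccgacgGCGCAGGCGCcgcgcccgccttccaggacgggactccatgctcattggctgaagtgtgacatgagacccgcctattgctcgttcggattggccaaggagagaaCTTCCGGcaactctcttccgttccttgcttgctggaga
Cox6a1: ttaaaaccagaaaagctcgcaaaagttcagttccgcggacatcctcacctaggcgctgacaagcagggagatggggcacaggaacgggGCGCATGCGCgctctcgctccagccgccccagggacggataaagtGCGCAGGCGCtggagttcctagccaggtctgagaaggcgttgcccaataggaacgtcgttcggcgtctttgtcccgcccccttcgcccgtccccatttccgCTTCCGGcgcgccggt
Sdha held 3 NRF1 matches, beginning 98, 55 and 10 bases before the start. Atp5h held an NRF1 match at 141 and an ETS match at 38 bases before it, and Cox6a1 NRF1 matches at 162 and 117 and an ETS match at 16.

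RNA of the subunit genes was compared between states to ask how their messages stood after 2 h of activation. Levels below are RNA CPM, computed over the 8494 genes of at least 10 CPM and scaled between libraries by trimmed means (TMM), and 75 members belong to those genes. They are not divided by transcript length, so they compare 1 gene between libraries and not 1 gene with another. Relative to these genes, subunit RNA moved little: the median log2 change of the 75 members was 0.01 (all genes 0.00), and they ranged from -0.43 (Sdha) to 0.38 (Ndufa5). By edgeR's quasi-likelihood test with Benjamini-Hochberg adjustment over all genes of this fit, 10 members rose and 12 fell at adjusted p under 0.05. That is 29.3% of the 75 members, while 73.3% of the 8494 genes passed. The 22 genes were named after their values were seen.

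**Figure D1:**
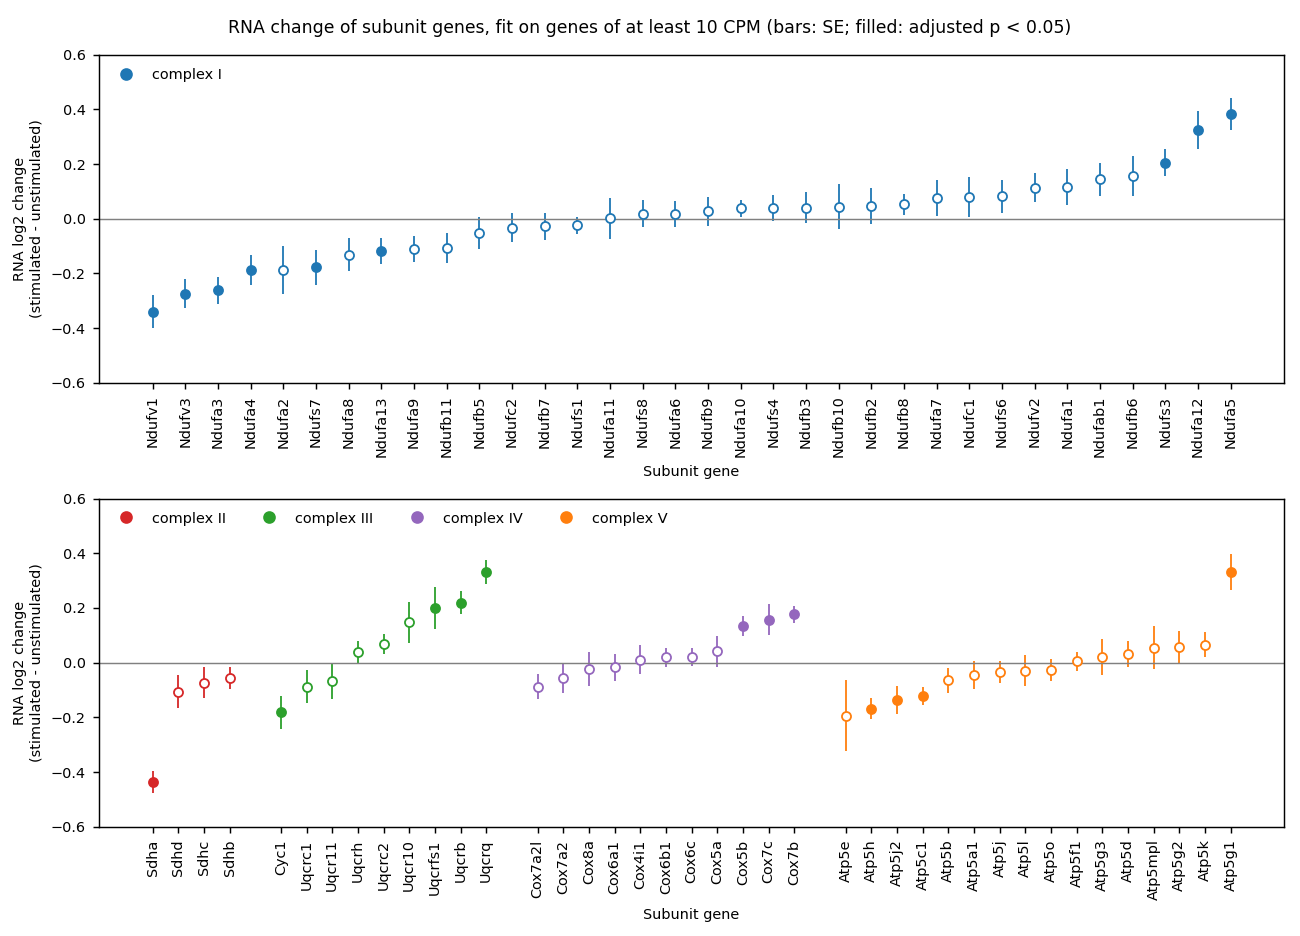
RNA log2 change (stimulated minus unstimulated, vertical axis) of the subunit genes of at least 10 CPM, ordered by change within each complex; bars are standard errors and filled points passed at adjusted p under 0.05. All points lie between -0.43 and 0.38, with Sdha lowest and Ndufa5 highest.

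**Figure D2:**
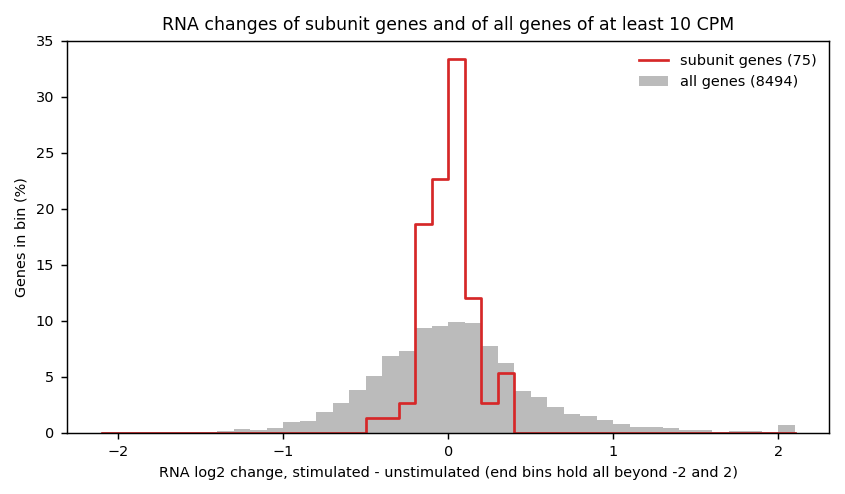
Share of genes (vertical axis, percent) per bin of RNA log2 change (horizontal axis) for the 75 subunit genes (line) and all 8494 genes of at least 10 CPM (bars); the end bins hold everything beyond -2 and 2. The line spans bins from -0.5 to 0.4, and the bars extend to both ends.

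This count depends on the set of genes in the fit and on scaling. Over all 18886 genes kept by the usual count filter, where standard errors of members were larger and the median of all genes stood at a log2 change of 0.38, 0 of 81 members passed with edgeR (1, Sdha, at an unadjusted p under 0.05), against a background of 8.24%. Without unstimulated replicate 2 that fit called 71 of 81 members lower, and without stimulated replicate 3 it called 33 lower. DESeq2 called 3 lower over all genes (Sdha, Ndufv1 and Ndufv3) and 13 had an unadjusted p under 0.05. Within the genes of at least 10 CPM, leaving out 1 RNA library gave 9 to 14 higher and 8 to 18 lower calls, and 16 of the 22 held in every such fit. Scaling by the totals of those genes alone moved the median of all genes to -0.27 and gave 0 members higher and 50 lower, with 19.7% instead of 50.4% of all genes called being higher. Directions below are therefore relative to the typical gene of at least 10 CPM.

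Complex II held the largest decrease. Sdha, the flavoprotein subunit that oxidises succinate, had RNA levels of 186, 188 and 181 CPM in the 3 unstimulated libraries and 131, 135 and 144 CPM in the 3 stimulated ones. All stimulated libraries lay below all unstimulated ones. The log2 change was -0.43 ± 0.040 (SE, n = 3 and 3; edgeR adjusted p = 8.04e-06), and in the fit over all genes it was -0.52 with edgeR adjusted p = 0.173. Sdhb, which carries the iron-sulfur clusters, measured 105, 102 and 108 CPM before and 96.2, 101 and 104 CPM after stimulation, and these overlapped. Sdhb, Sdhc and Sdhd (the membrane anchors) had log2 changes of -0.06, -0.07 and -0.11, and none of them passed.

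In complex I, 3 of 35 tested genes rose and 7 fell. Those that fell included Ndufv1, the subunit that binds NADH and the flavin, with 91.5, 84.9 and 93.5 CPM unstimulated and 65.3, 70.8 and 76.7 CPM stimulated. Its log2 change was -0.34 ± 0.060 (SE, n = 3 and 3; edgeR adjusted p = 0.000643). Ndufv2 and Ndufv3 belong to the same flavoprotein fragment. Ndufv3 measured 48.1, 47.4 and 48.7 CPM before and 36.6, 42.2 and 40.2 CPM after (log2 change -0.27, edgeR adjusted p = 0.00116), while Ndufv2 overlapped between groups with a log2 change of 0.11 (edgeR adjusted p = 0.0791). The difference between these genes was not tested. Ndufs7, a core iron-sulfur subunit, fell with a log2 change of -0.18. The accessory subunits Ndufa3 (-0.26), Ndufa4 (-0.19; later work places it in complex IV) and Ndufa13 (-0.12) fell as well. The calls of Ndufs7 and Ndufa13 were lost without single libraries, with adjusted p of up to 0.126 and 0.135 by edgeR.

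The complex I genes that rose were Ndufa5, Ndufa12 and Ndufs3. Ndufa5, an accessory subunit of the matrix arm, measured 18.1, 18.6 and 19.0 CPM unstimulated and 25.7, 23.6 and 23.6 CPM stimulated. No stimulated library reached down to the unstimulated ones, and the log2 change was 0.38 ± 0.059 (SE, n = 3 and 3; edgeR adjusted p = 0.000248). Ndufa12, which takes the place of an assembly factor late in building the matrix arm, measured 24.0, 27.3 and 23.5 CPM before and 32.6, 31.4 and 29.6 CPM after (log2 change 0.32, edgeR adjusted p = 0.00194). Ndufs3, a core subunit among the first to be assembled, had a log2 change of 0.21. Ndufb4, just under a mean of 10 CPM in raw counts, measured 8.03, 8.46 and 9.61 CPM before and 12.1, 11.04 and 11.8 CPM after and was tested only over all genes, where edgeR's adjusted p was 0.337. Ndufs1, the largest iron-sulfur subunit and the complex I gene with the highest raw RNA counts, measured 122, 119 and 121 CPM before and 120.0, 117 and 119.7 CPM after, which overlapped.

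In complex III, 3 of 9 genes rose and 1 fell. Uqcrq, a small subunit, measured 26.8, 27.6 and 27.7 CPM unstimulated and 33.9, 34.6 and 34.8 CPM stimulated, with a log2 change of 0.33 ± 0.044 (SE, n = 3 and 3; edgeR adjusted p = 9.12e-05). Uqcrb, another small subunit, measured 31.8, 31.8 and 30.8 CPM before and 36.9, 36.7 and 36.4 CPM after (log2 change 0.22). For both, the groups were far apart relative to the spread within each. Uqcrfs1, the Rieske iron-sulfur protein, had a log2 change of 0.20 although its groups overlapped at 90.9, 79.7 and 95.6 against 91.3, 105 and 109.6 CPM. Cyc1, cytochrome c1, fell with a log2 change of -0.18. The calls of Uqcrfs1 and Cyc1 did not hold without single libraries (edgeR adjusted p of up to 0.121 and 0.0781). The core proteins Uqcrc1 and Uqcrc2 had log2 changes of -0.09 and 0.07 and did not pass.

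In complex IV, 3 of 11 tested genes rose and 0 fell by edgeR (3 had an unadjusted p under 0.05). Cox7b measured 93.8, 94.1 and 94.1 CPM unstimulated and 109, 104 and 106 CPM stimulated (log2 change 0.18, edgeR adjusted p = 0.00052). Cox5b had a log2 change of 0.13 and Cox7c of 0.16, with Cox7c past the threshold in 3 of the 6 fits that left out 1 library (highest edgeR adjusted p 0.0891). These 3 genes encode small subunits around the mitochondrially encoded catalytic core. Cox4i1, the regulatory subunit with the most RNA by raw counts, measured 184, 175 and 188 CPM before and 171, 183 and 196 CPM after and did not separate the groups. In the fit over all genes without unstimulated replicate 2, Cox7b was called in the other direction, with a log2 change of -0.22.

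In complex V, 1 of 16 tested genes rose and 3 fell. The catalytic α and β subunits, Atp5a1 and Atp5b, had the highest raw counts of all members, and their groups overlapped: Atp5b measured 898, 849 and 897 CPM before and 799, 846 and 884 CPM after, and Atp5a1 682, 649 and 682 against 609, 644 and 698 CPM. Their log2 changes were -0.06 and -0.05 with edgeR adjusted p of 0.232 and 0.439, and on totals without TMM, where both were lower, it was 0.0240 and 0.0296. Atp5c1, the γ subunit of the rotor, fell from 189, 183 and 185 CPM to 172, 167 and 172 CPM, a small change (log2 -0.12) with no overlap. Atp5h, subunit d of the peripheral stalk, measured 106, 104 and 106 CPM before and 89.7, 93.6 and 98.3 CPM after (log2 change -0.17, edgeR adjusted p = 0.00252). Atp5j2, subunit f, had a log2 change of -0.14 that was lost without single libraries (highest edgeR adjusted p 0.154).

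The 3 Atp5g genes encode the same mature c subunit of the rotor ring with different import sequences. Atp5g1 measured 48.8, 50.3 and 50.8 CPM unstimulated and 57.5, 69.8 and 61.1 CPM stimulated, all higher (log2 change 0.33 ± 0.065, SE, n = 3 and 3; edgeR adjusted p = 0.00127). Atp5g2 (log2 change 0.06) and Atp5g3 (0.02) overlapped between groups. Whether these changes differ from each other was not tested.

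Where a subunit exists as tissue isoforms, only the broadly expressed gene had substantial RNA. The muscle, lung or testis forms had few RNA counts per library: Cox4i2 had 4 to 24 counts, Cox6a2 5 to 20, Cox6b2 18 to 33, Cox7a1 15 to 45, Cox7b2 0 to 14, Cox8b 4 to 13 and Cox8c 0 to 6. Ndufa4l2, a relative of Ndufa4 known to rise in hypoxia, had 17 to 83. Their partners Cox4i1, Cox6a1, Cox6b1, Cox7a2, Cox7b and Cox8a were each among the 75 genes of at least 10 CPM. None of the rare isoforms passed the test over all genes, and Cox4i2, Cox7b2, Cox8b and Cox8c were under its filter. Cox6a2 measured 0.225, 0.171 and 0.413 CPM before and 0.992, 0.770 and 0.729 CPM after, without overlap and with edgeR adjusted p of 0.304.

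**Figure D3:**
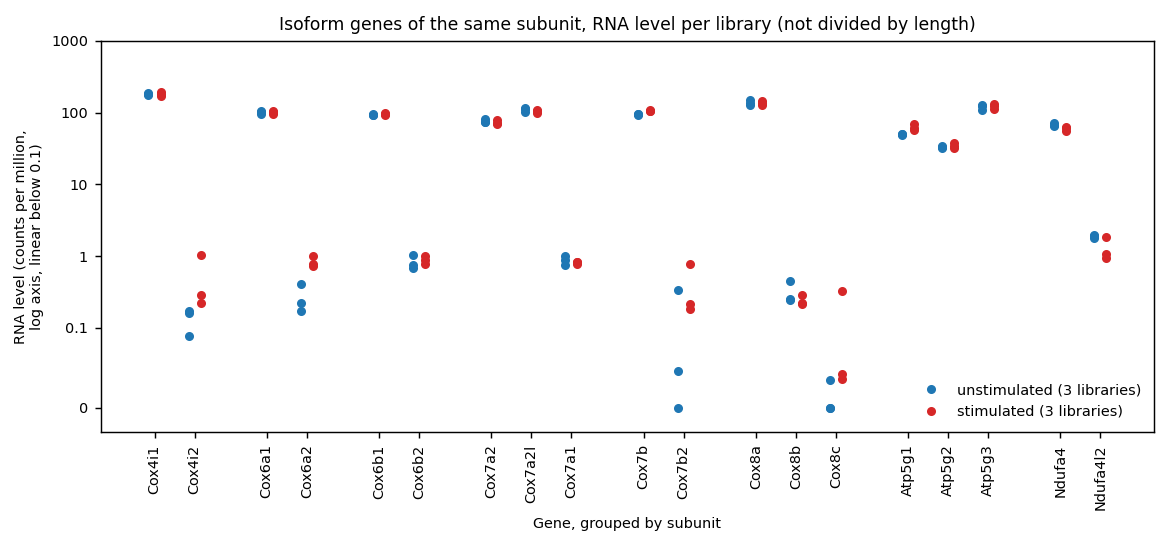
RNA level per library (CPM, log axis that is linear below 0.1, not divided by length) of isoform genes of the same subunit, 3 unstimulated and 3 stimulated libraries each. The tissue-restricted forms and Ndufa4l2 lie below 2 CPM in all libraries, and the other genes above 30 CPM.

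Other genes of the pathway were counted in the same fits, and differences between lists were not tested. Of 35 assembly factors of at least 10 CPM, 16 rose and 7 fell (65.7%, median log2 change 0.10), close to the 73.3% of all genes. Ndufaf4, a complex I assembly factor, measured 25.3, 25.5 and 25.2 CPM before and 61.3, 59.6 and 63.6 CPM after stimulation, with a log2 change of 1.28 ± 0.042 (SE, n = 3 and 3; edgeR adjusted p = 1.31e-08). Sco1, a copper chaperone of complex IV, rose with a log2 change of 0.79 and Ttc19, a complex III factor, with 0.71, while Tmem126b, a complex I assembly factor, fell with -0.63. These 4 genes also passed in the fit over all genes (edgeR adjusted p 0.00277 for Ndufaf4, 0.0305 for Ttc19, 0.0311 for Sco1 and 0.0133 for Tmem126b). There, 3 assembly factors rose and 1 fell of 47 tested (8.51%, against 8.24% of all genes).

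Electron carriers and exchange proteins gave 6 higher and 5 lower of 22 (50%, against 73.3% of all genes), among them Cycs, cytochrome c, which measured 42.1, 39.9 and 44.5 CPM before and 56.8, 54.6 and 59.8 CPM after (log2 change 0.43). In the fit over all genes Cycs did not pass (edgeR adjusted p = 0.312), nor did any of the 23 genes of its list (3 had an unadjusted p under 0.05). The tricarboxylic acid cycle gave 7 higher and 5 lower of 19 (63.2%). Idh2, the NADP-dependent isocitrate dehydrogenase, fell with a log2 change of -0.64 and also passed over all genes (edgeR adjusted p = 0.0108). Mitochondrial transcription and biogenesis genes gave 10 higher and 5 lower of 19 (78.9%, near the same 73.3%). Polg2, the accessory subunit of the mitochondrial DNA polymerase, fell with a log2 change of -0.92 and passed over all genes (edgeR adjusted p = 0.00576). Pprc1, a coactivator related to PGC-1, rose with 0.73, and Nrf1 itself fell with -0.15.

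Summed over all 86 members, subunit RNA took 0.782%, 0.658% and 0.775% of the counts of the unstimulated libraries and 0.537%, 0.573% and 0.681% of the stimulated ones. The highest stimulated share lay above the lowest unstimulated one. With the 4 high-count genes left out of the totals, the shares were 0.816%, 0.774% and 0.817% against 0.716%, 0.740% and 0.781%. The groups then still overlapped, and the log2 ratio of the means was -0.11 instead of -0.31. By complex, complex II had the largest difference on those totals (log2 ratio -0.29, from 0.0536% ± 0.00089 to 0.0438% ± 0.0026, SD, n = 3 and 3), and its 3 stimulated libraries lay below the unstimulated ones. Complex I also separated the groups, at 0.211%, 0.201% and 0.212% unstimulated against 0.188%, 0.191% and 0.200% stimulated (log2 ratio -0.11). These shares are not scaled by TMM. In the TMM-scaled fit on genes of at least 10 CPM, 20 of 35 complex I genes had a log2 change above 0 (median 0.02). The median of complex II was -0.09 there, and Sdha alone of its 4 genes passed. In bulk samples, less RNA per cell and fewer cells with that RNA cannot be told apart.

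**Figure D4:**
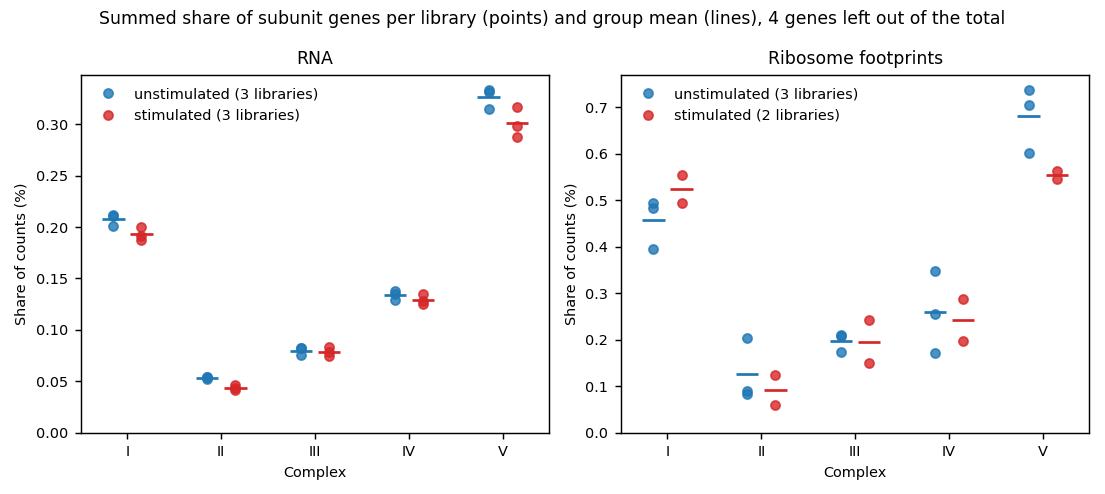
Summed share of counts per library (points, percent, vertical axes starting at 0) and group means (lines) by complex for RNA and for footprints, with the 4 high-count genes left out of the totals. On these totals, which are not scaled by TMM, RNA points of complexes I and II separate the groups. Footprint points of complexes II, III and IV scatter over wide ranges within a group and overlap between states. Those of complex V are lower in stimulated libraries (0.562% and 0.546%) than in unstimulated ones (0.602%, 0.705% and 0.736%). Those of complex I are higher by a narrow margin (0.4944% and 0.5545% against 0.4940%, 0.4840% and 0.3944%). These footprint differences were not tested.

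Footprints showed how ribosomes were spread over these messages. The 86 members took 1.56%, 1.69% and 1.89% of footprints in unstimulated and 1.53% and 1.69% in stimulated libraries, which overlapped. On totals without the 4 high-count genes, the footprint share was 2.14 times the RNA share in unstimulated and 2.16 times in stimulated cells. The same ratio by complex ranged from 1.93 (IV) to 2.46 (III) unstimulated and from 1.84 (V) to 2.72 (I) stimulated.

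Few footprints lay behind each gene. In all 5 libraries together the members of at least 10 CPM of RNA had 1419 footprints, of which Atp5b had 160, Atp5a1 116, Atp5g3 78, Cox4i1 53 and Atp5d 47. Counts of 10 or more were reached by 47 of the 75 (62.7%) against 26.3% of the 8494 genes. These shares are not matched for RNA level: 1 member but 1429 of the 8494 genes lay under 20 CPM of RNA. In the RNA bins with most members, 40 to 80 and 80 to 160 CPM, members had a median of 13 and 19 footprints. All genes of these bins had a median of 4 and 8. Among the 63 members with 5 or more footprints, the pooled footprint level divided by the RNA level had a median of 2.90. It ranged from 0.586 (Ndufs1) to 7.84 (Ndufa1), and in 60 of 63 it was above 1. Choosing genes by their footprints favours high ratios and, at low RNA levels, forces them above 1. The same share was not counted over all genes, so no result rests on this count. In this ratio footprints are scaled to library totals, but RNA to the TMM-scaled total of the genes of at least 10 CPM. A ratio of 1 is therefore not a neutral value, and the ratio is not an absolute rate of translation.

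**Figure D5:**
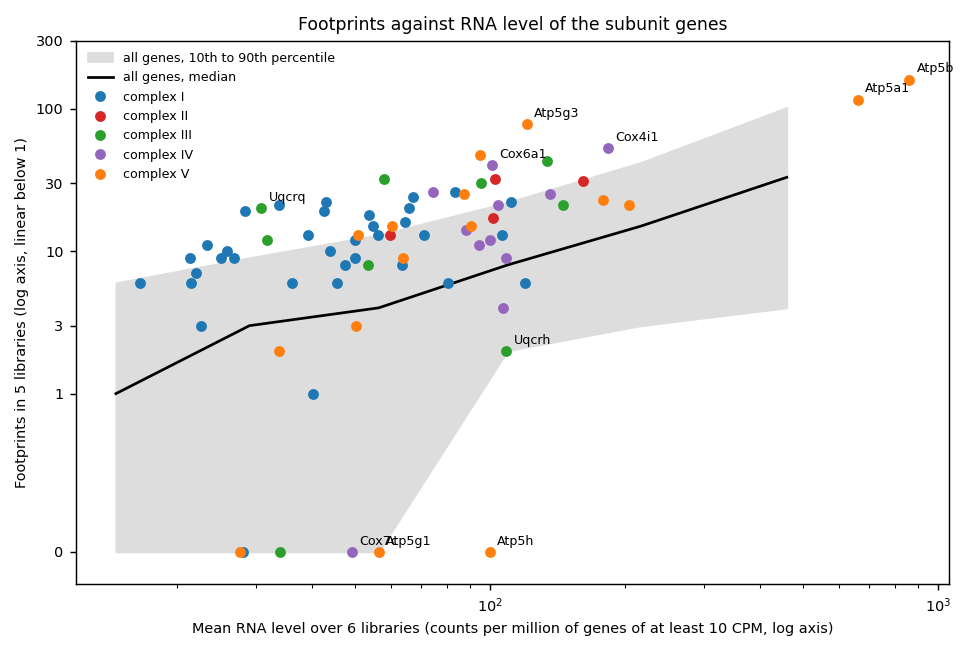
Footprints summed over 5 libraries (vertical axis, log scale that is linear below 1) against mean RNA level over 6 libraries (horizontal log axis) for the 75 subunit genes, with the median and the 10th to 90th percentile of all 8494 genes in 6 bins of RNA level. Most subunit genes lie above the median line, and 6 lie at 0.

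To test footprints against RNA, genes were chosen by RNA alone, so that genes with no footprint stayed in. Of 75 members, 17 were higher and 0 lower in unstimulated cells (22.7%, against 8.59% of all 8494 genes called in either direction and 4.89% called higher), and 35 had an unadjusted p under 0.05. In stimulated cells 24 were higher and 0 lower (32%, against 11.6% in either direction and 7.88% higher), and 33 had an unadjusted p under 0.05. The members' median log2 ratio was 1.12 and 1.27, and that of all genes -0.30 and -0.20. Coding length did not enter these fits, and its part in the ratios was not tested. Of the genes higher in 1 state, 13 were higher in both, which is 76.5% of the unstimulated and 54.2% of the stimulated calls. The counts rest on single libraries: they were 9 to 22 for unstimulated and 8 to 27 for stimulated cells when 1 footprint library was left out. Without unstimulated replicate 3 the count was 9, and without stimulated replicate 3 it was 8. In every such fit the same 7 members were called in unstimulated and the same 5 in stimulated cells. With genes of at least 10 CPM in both RNA and footprints, edgeR called 22 of 68 members higher unstimulated (background 10.4%) and 24 of 68 stimulated (background 13.7%). DESeq2 over all genes called 38 higher and 0 lower unstimulated (44 at an unadjusted p under 0.05), and 35 higher and 1 lower (Uqcrh) stimulated (42 at an unadjusted p under 0.05).

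The usual count filter left only 5 members with enough footprints, and all 5 were higher than their RNA in both states by edgeR. The background was 61.6% unstimulated and 70.6% stimulated among 255 genes, and this filter keeps genes with many footprints, so no result rests on the count. The 5 were Atp5g3, Atp5d, Atp5b, Atp5a1 and Cox4i1. Atp5g3 had 9, 12 and 18 footprints in the unstimulated and 19 and 20 in the stimulated libraries. Its log2 ratio of footprints to RNA with genes chosen by RNA was 2.94 and 3.01 (edgeR adjusted p = 1.4e-05 and 7.9e-06). Without stimulated replicate 3, Cox4i1, Atp5a1 and Atp5b no longer passed in stimulated cells in the filtered fit.

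By complex, the genes called higher in footprints than in RNA were 5 of 35 in complex I, 1 of 4 in II, 4 of 9 in III, 2 of 11 in IV and 5 of 16 in V in unstimulated cells. In stimulated cells they were 10, 1, 4, 4 and 5. Uqcrq had 1, 9 and 2 footprints unstimulated and 4 and 4 stimulated, a pooled footprint level 7.58 times its RNA level (95% exact Poisson interval 4.63 to 11.7, counting error only). Ndufa1, a small membrane-arm subunit, had 3 in each of 4 libraries and 7 in stimulated replicate 3. Ndufa6, a matrix-arm accessory subunit, had 3, 4 and 8 unstimulated and 5 and 2 stimulated. Cox6a1 had 7, 7 and 13 unstimulated and 5 and 8 stimulated (log2 ratio 2.65 in unstimulated cells, edgeR adjusted p = 8.09e-05). Each of these had footprints in every library.

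No footprint in any library was found for 6 members with RNA of at least 10 CPM: Atp5h, Atp5g1, Cox7c, Uqcrb, Atp5l (subunit g of the ATP synthase) and Ndufa12. This is 8% of the 75, against 15.8% of the 8494 genes, and these shares are not matched for RNA level. For Atp5h the mean RNA level was 99.7 CPM, and 0 of 85433 footprints allow up to 35.1 CPM. By this floor, which covers counting error only, its RNA level was at least 2.84-fold higher than its footprint level. The fit across libraries with genes chosen by RNA did not call Atp5h lower (edgeR adjusted p = 0.0555 unstimulated and 0.0678 stimulated). For Atp5g1 the bound was at least 1.61-fold and for Cox7c at least 1.40-fold, and neither passed in that fit. For the other 3 the depth allows no statement. In the bin of 80 to 160 CPM that holds Atp5h, 4.85% of all genes had 0 footprints. The median there was 8 for all genes and 19 for members. In the bin of 40 to 80 CPM that holds Atp5g1 and Cox7c, 12.2% of all genes had 0 footprints. The median there was 4 for all genes and 13 for members. These bounds set RNA scaled to genes of at least 10 CPM against footprints scaled to library totals. Atp5g1 at 0 footprints and Atp5g3 at 78 encode the same mature protein, with mean RNA levels of 56.4 and 121 CPM. Ndufc2 had 1 footprint, Uqcrh (the hinge protein) 2 and Atp5g2 2. Cycs and Ndufaf4, which rose in RNA, also had 0.

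Genes with near-identical pseudogene copies can lose reads that map to several places, and the handling of such reads is not given in the sources used here. RefSeq lists a pseudogene named after the gene for 3 of the 6 members without footprints (Ndufa12, Cox7c and Atp5l) and for 5 of the 69 with 1 or more (Ndufab1, Uqcrh, Cox5b, Atp5c1 and Atp5k). Names cover only part of the copies, and their part in the counts was not tested. Footprint counts of a few members were also uneven between replicates: Sdha had 0, 7 and 17 unstimulated and 7 and 0 stimulated, and Ndufa13 had 0, 3 and 0 against 6 and 15.

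The change of footprints between states was tested in 5 members by the usual filter, and 0 passed with edgeR (0 at an unadjusted p under 0.05, background 8.98% of 256 genes). Atp5b had 13, 38 and 36 footprints before and 31 and 42 after, with a log2 change of -0.34 ± 0.30 (SE, n = 3 and 2; approximate 95% interval -0.94 to 0.25). Atp5a1 had 21, 14 and 21 before and 23 and 37 after (log2 change -0.06, interval -0.80 to 0.69). Cox4i1 (-0.15, interval -1.15 to 0.85), Atp5g3 (-0.11, interval -1.002 to 0.79) and Atp5d (0.34, interval -0.80 to 1.47) had wider intervals still. At this depth a change of the size seen in RNA was not detectable in footprints. Among 70 members of at least 10 CPM of footprints, edgeR called 0 (3 at an unadjusted p under 0.05, background 0.209%), and DESeq2 called 0 of 72 (2 at an unadjusted p under 0.05).

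The 3 genes at an unadjusted p under 0.05 were higher after stimulation and were named after their values were seen. Ndufb8, of the complex I membrane arm, had 0, 0 and 0 footprints before and 7 and 9 after (adjusted p = 0.382 by edgeR). Ndufa13 had the counts given above (adjusted p = 0.751 by edgeR). Cox7a2 had 0, 4 and 2 before and 8 and 12 after (adjusted p = 0.751 by edgeR). None of the 3 passed, and RNA of Ndufb8 and Cox7a2 overlapped between states.

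Translational efficiency, the ratio of footprints to RNA, was compared between states in 1 model over all 11 libraries. With edgeR 0 of 5 members passed (0 at an unadjusted p under 0.05, background 5.1% of 255 genes), and the log2 changes ran from -0.11 (Atp5b) to 0.59 (Atp5d). With genes chosen by RNA alone 0 of 75 passed with edgeR (5 at an unadjusted p under 0.05), and 0 of all 8494 genes passed either. DESeq2 called 0 of 72 (9 at an unadjusted p under 0.05). The interval for Atp5g3 ran from -0.81 to 0.92 and that for Cox4i1 from -0.99 to 0.995, so changes in efficiency of less than about 2-fold in either direction were within the error even for these genes.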

How the data were processed

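RNA and ribosome footprints of unstimulated and 2 h stimulated primed OT1 cells were used as deposited, as raw counts per gene over coding sequences; the submitters' processing notes name STAR 2.5 and the genome build mm10 (GRCm38), and strand and multi-mapping settings are not given in the sources used here. The deposited count table was identical to the single-library count files in all 241527 values, and 21838 of 21957 identifiers had a symbol. Members and lists were chosen with earlier results of these data known.

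Counts were tested with edgeR 4.0.16 (TMM, quasi-likelihood F test, prior count 2) in R 4.3.3, on all genes passing filterByExpr (minimum count 10, minimum total 15) and, as an alternative, on genes of at least 10 CPM, scaled on those genes. p-values were adjusted over all genes of a fit (threshold 0.05). Ratios of footprints to RNA used 1 model over 11 libraries with TMM within each assay; a fit on genes chosen by RNA alone was added after seeing the data, since the planned filters drop genes without footprints. DESeq2 1.42.0, other scalings, filters and libraries left out were alternatives. SE is the log2 change divided by the square root of F. The fits were also run on simulated counts, drawn from the pooled profile of each assay at a fixed dispersion. These lack the shifts between libraries seen here and say nothing of their effect. RNA libraries of 21658263 to 39346699 counts gave precise levels; footprint libraries of 11136 to 23641 did not, and floors (3 counts) and 95% exact Poisson intervals cover counting error only.

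Genes named by rule were the 2 per complex with most RNA, the lowest p in each direction, those passing, isoform groups, Cycs and pathway genes passing. Levels per length were planned for the first of these, but raw CPM were used because coding lengths were not used here. The 22 RNA calls among genes of at least 10 CPM, and genes singled out by footprints, were chosen after their values were seen. The values of 1 member are not reported here by name, and its point is not drawn in the plot of RNA changes by gene; it stays in all counts.

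Same-numbered replicates were not treated as pairs in the main fits. Their deviations from the group means correlated at -0.727, 0.571 and 0.805 in RNA and -0.0267 and 0.000332 in footprints. With so few libraries per group, these values do not settle whether the replicates are pairs.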

Additional observations from a re-analysis of the deposited data

How the results depend on the processing

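The number of members called lower in RNA over all genes was 0 with RLE factors, no filter, the 4 high-count genes removed or a replicate block, 3 with DESeq2 and 17 on library totals without TMM, and 0 to 71 when 1 RNA library was left out. Among genes of at least 10 CPM it was 10 higher and 12 lower, 0 and 50 on totals without TMM, 16 higher without the 3 libraries with most counts in the 4 high-count genes, and 9 to 14 higher and 8 to 18 lower with 1 library left out; of the 22 calls, all 12 lower and 0 of the 10 higher passed without TMM. The cause was not tested. The replicate block gave 11 higher and 12 lower there and 0 and 0 over all genes, with 2394 instead of 1557 genes called in all, and it left the counts of 5 and of 0 members in the other filtered fits as they were; it was not run on the ratios with genes chosen by RNA or at 10 CPM.

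Members with footprints above RNA numbered 5 in both states in the filtered fits. In unstimulated cells they were 38 with DESeq2, 19 with no filter, 22 at 10 CPM, 17 with genes chosen by RNA, and 4 to 9 with 1 library left out. In stimulated cells they were 35 (1 lower) with DESeq2, 24 with no filter, 24 at 10 CPM, 24 with genes chosen by RNA, and 2 to 7 with 1 library left out; more or fewer genes pass these filters. With genes chosen by RNA, leaving out 1 footprint library gave 9 to 22 and 8 to 27. No member passed for footprint or efficiency change under any alternative run (edgeR, 0 at an unadjusted p under 0.05 in the filtered fits; DESeq2, 2 and 9).

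Removing the 4 high-count genes from the totals moved the log2 ratio of summed RNA shares from -0.31 to -0.11, and that of footprint over RNA share in stimulated cells from 1.43 to 1.11. Of the values of single genes over all genes, 49 had the sign opposite to the reported one, and 1 of these passed the threshold: Cox7b, at -0.22 without unstimulated replicate 2 (range -0.22 to 0.065 with 1 library left out). Footprint depth limits every statement on single genes.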
